A study of Mus musculus with 8 samples.

Results

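The RNA of pachytene (P) spermatocytes from MFN2 cKO mice was compared with that of MFN2 WT mice at postnatal day (PD) 52. Genes were included when their FPKM, the reads of a gene scaled by its length and by the depth of the library, was above 1 in at least 1 of the 2 libraries, which kept 17444 of the 54532 genes in the table. Each genotype is 1 library, so there is no replicate error, no test was possible, and every difference is one between 2 libraries. The change of a gene is the difference of log2(FPKM + 1) between the libraries, with MFN2 WT subtracted from MFN2 cKO, and its 95% interval, taken from the exact binomial distribution of the reads of the pair, covers counting error only, since PCR reads are not independent molecules. The MFN2 cKO library is from mice labelled Mfn2 loxp/loxp; Stra8-Cre, the MFN2 WT library from mice labelled Mfn2 loxp/loxp without Cre, and both are on C57BL/6J. Stra8-Cre acts in male germ cells, from early spermatogonia on, so Leydig, Sertoli and other somatic cells keep their floxed alleles intact. The P cells were taken from a BSA gradient by sedimentation and judged by diameter and morphology, and the number of mice behind each library is not given in the sources used here. The study also made the same pair at PD 24, and both pairs for leptotene and zygotene (L/Z) spermatocytes. These pairs are set beside the P pair at PD 52 for some genes and lists, and not for every one that differs.

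MFN2 is a GTPase of the outer mitochondrial membrane that, with its relative MFN1, joins mitochondria to one another. Pachytene is the long stage of meiotic prophase in which homologous chromosomes are fully synapsed and recombine, while the X and Y chromosomes are silenced in the sex body. Spermatocytes at this stage rely on mitochondrial respiration more than spermatogonia do, and they already make many RNAs for proteins of the later spermatid, such as those of the flagellum and the acrosome.

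The transcript targeted in these mice was present in both libraries. *Mfn2* (ENSMUSG00000029020, GRCm38 chromosome 4, 147873599 to 147904704) was at 62.2 FPKM (5179 reads) in P WT and 50.1 FPKM (3774 reads) in P cKO at PD 52, a change of -0.31 (95% interval -0.37 to -0.25). The same change was -0.94 in the P pair at PD 24, -1.01 in the L/Z pair at PD 52 and -1.23 in the L/Z pair at PD 24. The gene-level value counts reads from all exons, so reads outside the floxed exon are counted in MFN2 cKO as well. *Mfn1*, the other mitofusin, was at 14.6 and 13.4 FPKM, and *Opa1*, the GTPase that fuses the inner membrane, at 7.04 and 7.63 FPKM.

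Markers of cell types were read in the 2 libraries. All 27 pachytene markers passed the filter, none differed 2-fold, and their summed level was 7785 FPKM in P WT and 6666 FPKM in P cKO. In the L/Z libraries at PD 52 the same markers summed to 6557 FPKM in WT and 7424 FPKM in cKO. Their sum therefore did not separate P from L/Z libraries at this age and cannot check the label. *Ldhc*, the germ cell lactate dehydrogenase, was at 2910.1 FPKM in P WT and 2141 FPKM in P cKO, *Hspa2*, the meiotic heat shock protein, at 666 and 671 FPKM, and *Piwil1*, a pachytene piRNA protein, at 168 and 172 FPKM. Markers of other cells were present too. The 22 elongating spermatid markers summed to 9247 FPKM in P WT and 5234 FPKM in P cKO, the 24 Sertoli cell markers to 1381 and 646 FPKM, and the 16 Leydig cell markers to 327 and 838 FPKM. In bulk RNA, fewer cells of a type and less RNA per cell cannot be told apart.

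The P WT library at PD 52 stood apart from the other 3 P libraries in its composition. Genes with a coding length of up to 600 bases took 12.9% of its reads, against 8.58% in P cKO at PD 52, 8.82% in P WT at PD 24 and 8.93% in P cKO at PD 24. Genes with a coding length over 3000 bases took 15.4% of its reads, against 21.2%, 21.9% and 21.6% in the same order. Every change below rests on that library, and the pair cannot be compared without it.

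**Figure D1:**
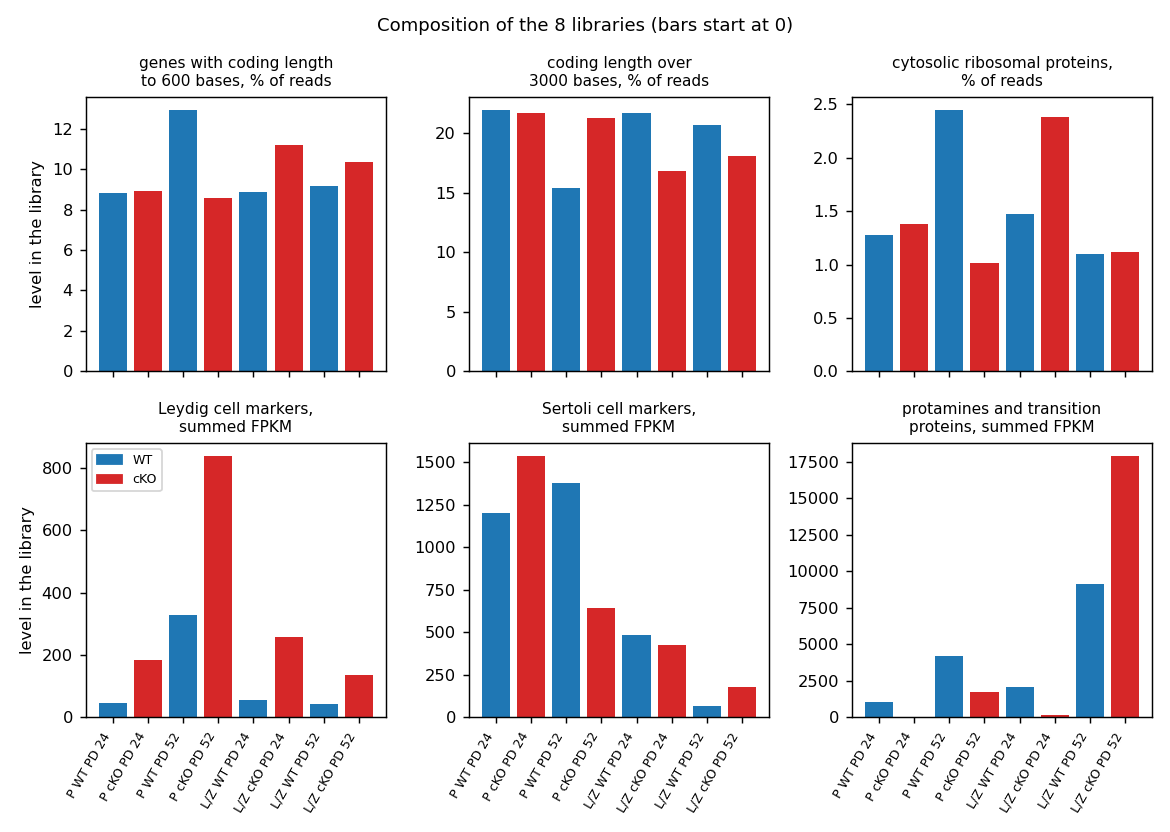
Share of reads (percent, upper row) and summed FPKM (lower row) in each of the 8 libraries, 1 bar a library, WT in blue and cKO in red. The P WT library at PD 52 has the highest share of short coding genes (12.9%) and of cytosolic ribosomal protein genes (2.45%), and Leydig cell markers are highest in P cKO at PD 52 (838 FPKM).

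Across the transcriptome the 2 libraries differed little for most genes. The middle 50% of changes lay between -0.42 and 0.30 and 90% between -1.06 and 1.02, with a median of -0.05. At least 2-fold higher in P cKO were 909 genes (5.21%) and at least 2-fold lower were 1008 (5.78%), an order that turned to 1026 higher and 826 lower with a further median-of-ratios scaling, which raised the changes by 0.0972. Of all genes tested, 45.6% were higher by any amount. Among the 12396 protein-coding genes, 237 (1.91%) were at least 2-fold higher, 554 (4.47%) at least 2-fold lower, and 42.2% higher by any amount. Of the 1917 genes that differed 2-fold, 707 had fewer than 20 reads in the 2 libraries together. Among these shallow genes 498 were higher and 209 lower, whereas among genes with at least 50 reads 317 were higher and 711 lower.

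**Figure D2:**
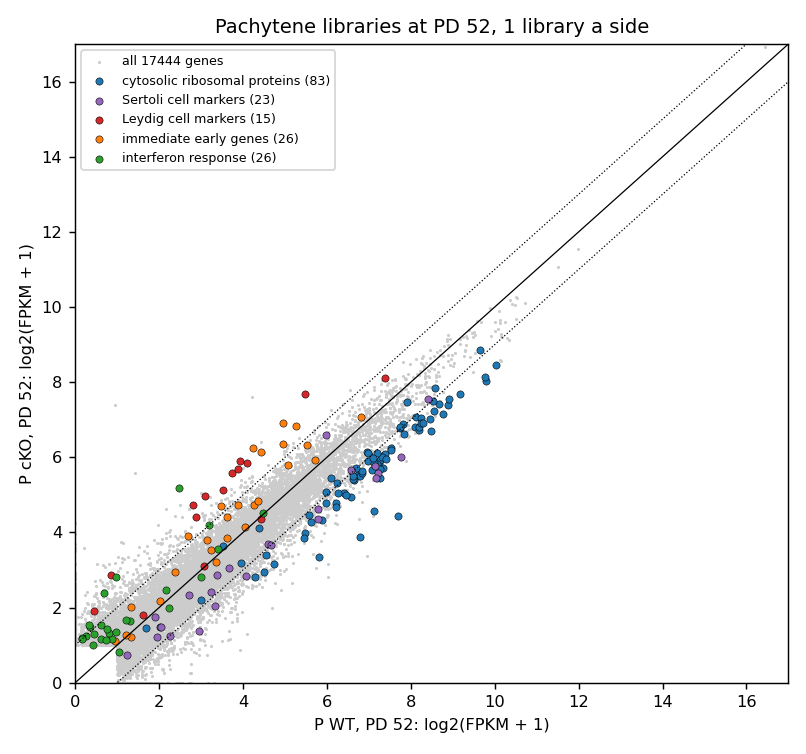
log2(FPKM + 1) in P WT (horizontal axis) and P cKO (vertical axis) at PD 52, 1 grey point for each of the 17444 genes, with 5 gene lists in colour and the dotted lines at a 2-fold difference. Cytosolic ribosomal protein and Sertoli cell genes lie mostly below the diagonal, and Leydig cell genes, immediate early genes and interferon response genes mostly above it.

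Small noncoding RNAs made up many of the shallow genes. Of 188 snRNA genes tested 96 were at least 2-fold higher and 26 lower, of 281 miRNA genes 138 and 49, and of 157 snoRNA genes 68 and 29. With at least 50 reads in the pair, 0 snRNA, 2 snoRNA and 12 miRNA genes remained, and 1 of these miRNA genes differed 2-fold. These libraries were not made for small RNAs, and the counts of such genes are given as a description of the table. The gene with the highest FPKM in both libraries was Gm23935, annotated as a miRNA gene of 57 bases, at 88643 FPKM in P WT and 123866 FPKM in P cKO, or 0.506% and 0.715% of reads.

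The direction of change followed coding length. Among protein-coding genes, the median change climbed from -0.70 for 305 genes with coding sequence up to 300 bases to 0.43 for 318 genes above 6000 bases. Of the 305 shortest, 103 were at least 2-fold lower and 18 higher, and of the 318 longest, 0 were 2-fold lower and 23 higher. Across the 12381 genes with a coding length, the change correlated with log2 coding length at Pearson's r = 0.43 and Spearman's rho = 0.45, where all points share the same 2 libraries. The 1675 genes of up to 600 bases outside the cytosolic and mitochondrial ribosome and the respiratory chain still had a median of -0.45.

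The other pairs did not share this slope. Genes of up to 600 and over 3000 coding bases had medians of -0.51 and 0.25 in the P pair at PD 52, but -0.09 and -0.09 in the P pair at PD 24. In the L/Z pairs the slope was opposite, at 0.14 and -0.15 at PD 52 and 0.36 and -0.20 at PD 24. Several gene families described next are short or long throughout, so family medians are followed in brackets by the median relative to genes of the same coding length. The part of coding length in these families was not tested further.

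**Figure D3:**
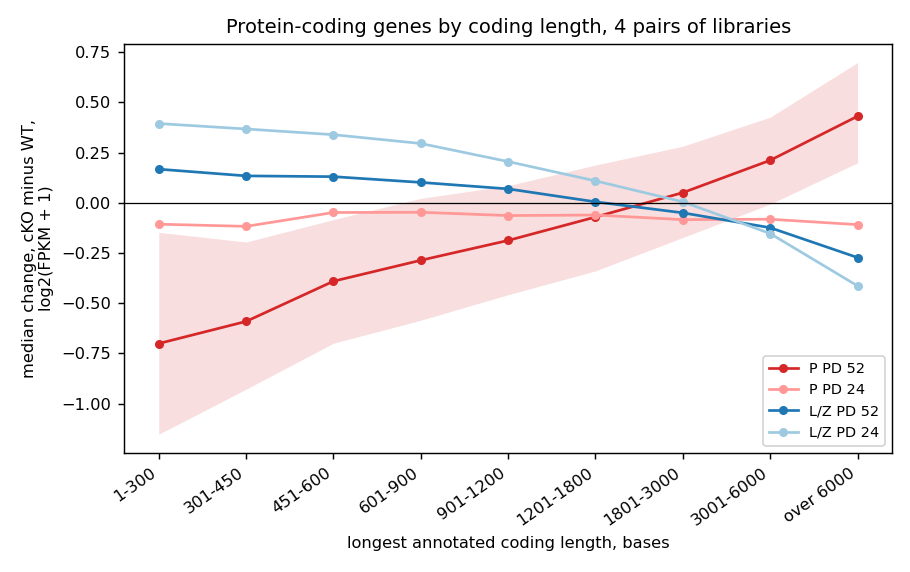
Median change, cKO minus WT, of protein-coding genes (vertical axis, log2(FPKM + 1)) in 9 bins of coding length (horizontal axis, bases), 1 line a pair of libraries, with the middle 50% of genes shaded for the P pair at PD 52. The P pair at PD 52 climbs from -0.70 to 0.43, the P pair at PD 24 is flat, and both L/Z pairs descend.

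Genes of the cytosolic ribosome, the machine that translates mRNA, were lower almost throughout. All but 1 of the 83 ribosomal protein genes tested were lower in P cKO, 65 of them at least 2-fold, and the median was -1.29 (-0.79 relative to genes of the same coding length). The exception was *Rps4x*, at 10.5 and 11.6 FPKM, with 275 and 274 reads. Ribosomal protein genes took 2.45% of reads in P WT and 1.02% in P cKO, while P WT and P cKO at PD 24 had 1.28% and 1.38%. The P cKO value thus lay below both PD 24 values and the P WT value above both. Medians of the family were -0.04 in the P pair at PD 24, 0.15 in the L/Z pair at PD 52 and 0.72 in the L/Z pair at PD 24. *Rpl36*, the ribosomal gene with the highest FPKM in P WT, was at 1042 and 349 FPKM (change -1.58, 95% interval -1.65 to -1.503). *Rplp0*, of the ribosomal stalk, was at 800 and 458 FPKM. *Rpl10l* and *Rpl39l*, paralogs used in the testis, were at 380.3 and 227 FPKM and at 576 and 204 FPKM, while the X-linked *Rpl10* was at 19.8 and 16.2 FPKM.

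Ribosomal protein genes have many processed copies in the genome, which can divide their reads. Of the 83 genes, 78 shared at least 50 windows of 50 bases with a processed pseudogene. When the reads of the 554 copies so found were added to those of their gene, the median log2 ratio of scaled reads was -1.29, against -1.31 for the genes alone, and 82 of 83 stayed lower.

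Among single genes of the family, *Rpl29*, *Rpl34*, *Rps27a* and *Rpl35a* differed most when counted without copies. With copies pooled, the log2 ratio of scaled reads was -2.49 for *Rpl29*, -2.497 for *Rps27a* and -2.32 for *Rpl35a*, but for *Rpl34* it went from -2.998 to -1.505, behind *Rps18* at -1.81 and *Rpl41* at -1.78. *Rpl29* (ENSMUSG00000048758, chromosome 9, 106429454 to 106431568), a protein of the large subunit, was at 208 FPKM (3755 reads) in P WT and 20.7 FPKM (339 reads) in P cKO, a change of -3.26 (95% interval -3.42 to -3.11). It was also low in the L/Z cKO library at PD 52, at 23.7 FPKM against 110.2 FPKM in L/Z WT, and not in the PD 24 libraries, which ranged from 87.8 to 129.9 FPKM. *Rpl34* (ENSMUSG00000062006, chromosome 3, 130726831 to 130730398) was at 110.2 FPKM (4672 reads) and 13.8 FPKM (529 reads), a change of -2.91 (95% interval -3.03 to -2.79).

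A near-identical copy of *Rpl34* moved the other way. Rpl34-ps1 (ENSMUSG00000068396, chromosome 6, 71124610 to 71124963), a processed pseudogene, was at 17.6 FPKM (100 reads) in P WT and 195 FPKM (1004 reads) in P cKO. In the L/Z libraries at PD 52 it was at 10.8 and 248 FPKM, and in the 4 PD 24 libraries between 9.11 and 22.6 FPKM. All 305 of its 50-base windows occur in another transcript, 218 of them in *Rpl34*, so reads of the pair are uncertain as to which gene they came from. Over the 354 aligned bases, from the start codon to the stop codon, the copy differs from *Rpl34* at 2 positions, T132C and C318G, counted from 1 at the A of the start codon with the base of *Rpl34* first. The first 150 bases of the coding sequence (GENCODE, GRCm38) are shown to let the first of these be seen, in capitals.
Rpl34: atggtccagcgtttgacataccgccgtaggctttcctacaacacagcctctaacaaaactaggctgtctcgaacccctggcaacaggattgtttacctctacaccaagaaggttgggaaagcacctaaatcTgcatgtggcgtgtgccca
Rpl34-ps1: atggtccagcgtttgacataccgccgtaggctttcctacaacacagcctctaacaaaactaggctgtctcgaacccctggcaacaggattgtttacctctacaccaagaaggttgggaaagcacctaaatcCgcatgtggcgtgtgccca

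The nuclear genes of the respiratory chain were lower as a group. Of 35 genes of complex I, which feeds electrons from NADH into the chain, 34 were lower and 17 at least 2-fold, with a median of -0.98 (-0.55 relative to coding length). *Ndufa2* was at 288 FPKM (2647 reads) in P WT and 98.8 FPKM (820 reads) in P cKO, and *Ndufa1* at 63.8 and 21.2 FPKM. All 9 genes of complex III were lower, 6 of them 2-fold, with a median of -1.12 (-0.56), among them *Uqcr11* at 109 and 32.6 FPKM. Complex IV, cytochrome c oxidase, had 18 of 19 genes lower and 8 at least 2-fold, with a median of -0.91 (-0.23). All 19 genes of ATP synthase were lower, 6 of them 2-fold, with a median of -0.81 (-0.42), and *Atp5k* was at 124 and 33.1 FPKM. The long subunit gene *Ndufs1* was level at 11.3 and 11.4 FPKM. Complex II, with 4 genes, had a median of -0.63 (-0.24) and none of its genes differed 2-fold. The other pairs did not share these decreases. In the order complex I, II, III, IV and ATP synthase, medians were -0.14, -0.04, -0.19, -0.07 and -0.08 in the P pair at PD 24. They were 0.03, -0.15, -0.01, 0.08 and 0.13 in the L/Z pair at PD 52. In the L/Z pair at PD 24 they were 0.46, 0.59, 0.38, 0.67 and 0.48.

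The mitochondrial ribosome and the import machinery were lower too. Of 77 mitochondrial ribosomal proteins 76 were lower and 13 at least 2-fold, with a median of -0.70 (-0.32). The import machinery had 24 of 25 genes lower and 7 at least 2-fold, with a median of -0.68 (-0.29), and *Tomm20l*, a testis form of an import receptor, was at 75.2 and 17.6 FPKM (869 and 184 reads). Medians of the mitochondrial ribosome and of import were -0.04 and -0.09 in the P pair at PD 24. They were 0.01 and 0.005 in the L/Z pair at PD 52. In the L/Z pair at PD 24 they were 0.42, with 76 of 77 genes higher, and 0.36, with 24 of 25 higher. The enzymes of the tricarboxylic acid cycle had a median of -0.19 (-0.17), those of fatty acid beta-oxidation -0.06 (0.10), and the mitophagy and autophagy genes -0.18 (-0.00078), with 0 genes of the 3 lists past 2-fold. The genes of mitochondrial fusion, fission and distribution had a median of -0.13, and relative to coding length 0.01. Among them *Phb*, a scaffold of the inner membrane, was at 16.999 and 8.01 FPKM, and *Fis1*, an outer membrane fission factor, at 38.8 and 20.7 FPKM.

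Transcripts of the mitochondrial genome itself were lower by less than those of the nuclear respiratory chain genes. They took 1.09% of reads in P WT and 0.866% in P cKO, and 11 of the 12 protein-coding genes tested were lower with a median of -0.36 (-0.21). Relative to coding length, that median was close to those of complex II (-0.24) and complex IV (-0.23). The 11 tRNA and rRNA genes tested had a median of -0.49, with 2 at least 2-fold higher and 3 lower. *mt-Co1*, a core subunit of complex IV, was at 4081 and 2987 FPKM, and *mt-Cytb*, of complex III, at 1100.0 and 952 FPKM. The 2 genes at least 2-fold lower had low FPKM, *mt-Nd3* at 13.6 and 3.76 FPKM and *mt-Co3* at 23.7 and 9.23 FPKM. Windows shared with other genes were not counted for these 2, so how far shared sequence lowers their FPKM was not tested. The median for the protein-coding genes was -0.02 in the P pair at PD 24, -0.47 in the L/Z pair at PD 52 and 0.22 in the L/Z pair at PD 24.

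Lipid and peroxisome genes were followed by the study. The 46 PPAR signaling genes tested had a median of -0.07 (0.00246), which turned positive with median-of-ratios scaling. Of the 41 above 1 FPKM in both libraries, 17 were higher and 2 at least 2-fold, and 4 genes passed the filter in P cKO alone. The 4 genes at least 2-fold higher, among which *Scd1* and *Angptl4* passed in P cKO alone, were *Cd36*, a fatty acid transporter, at 1.35 and 6.77 FPKM, *Scd1*, a desaturase, at 0.851 and 4.70 FPKM, *Fabp3*, a fatty acid binding protein, at 67.3 and 152 FPKM, and *Angptl4*, at 0.967 and 3.19 FPKM. The receptors were under 1 FPKM in both libraries, *Ppara* with 21 and 41 reads, *Ppard* with 71 and 39 and *Pparg* with 47 and 35. All 16 peroxisome biogenesis genes were lower, with a median of -0.28 (-0.06 relative to coding length), and *Pex3* was at 15.9 and 14.97 FPKM.

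**Figure D4:**
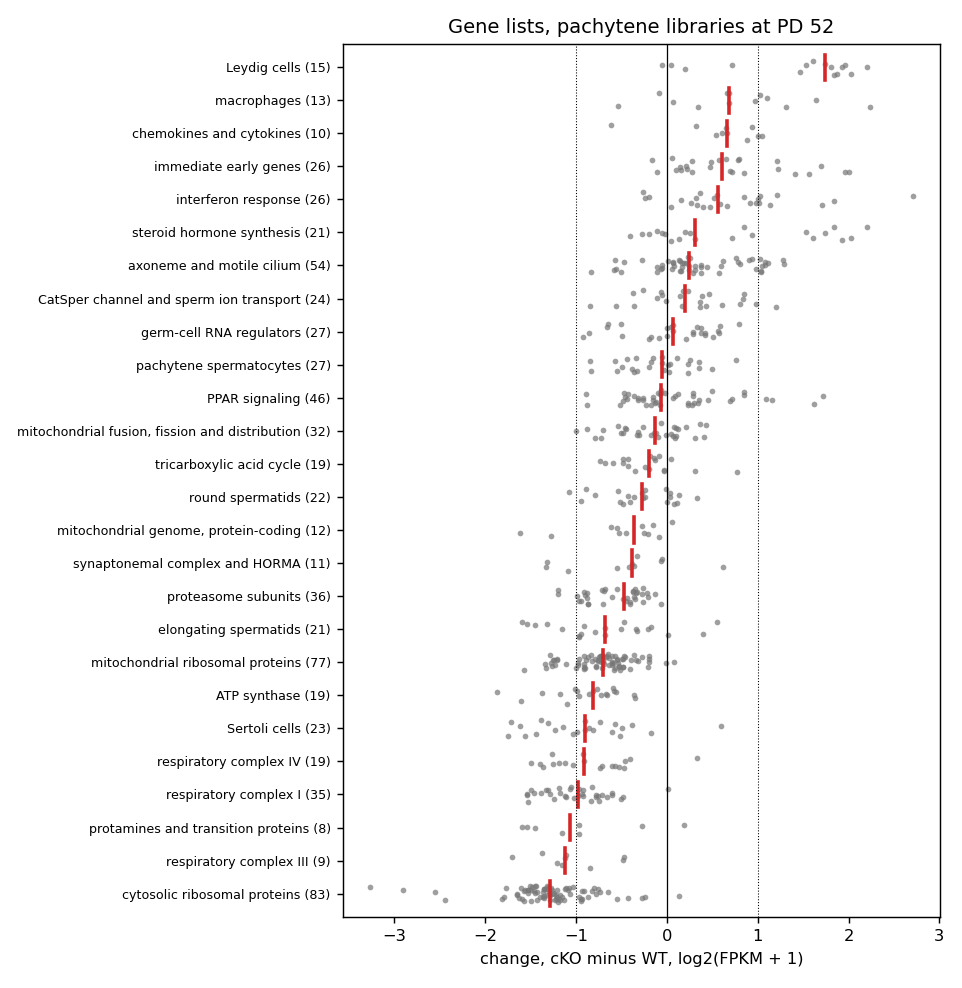
Change of each member past the filter (grey points, cKO minus WT, log2(FPKM + 1)) for 26 gene lists of the P pair at PD 52, with the number of members in brackets and the median as a red bar. The medians run from 1.74 for Leydig cell markers to -1.29 for cytosolic ribosomal proteins, and dotted lines mark a 2-fold difference.

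Meiotic gene lists were close to the background or somewhat below it. Of 11 genes of the synaptonemal complex and HORMA proteins, which join and mark the paired chromosome axes, 10 were lower with a median of -0.38 (-0.36 relative to coding length). The 3 at least 2-fold lower were small central element genes, with *Syce3* at 140 and 54.7 FPKM, *Tex12* at 26.1 and 9.90 FPKM and *Syce2* at 43.2 and 19.7 FPKM. *Sycp3*, of the lateral element, was level at 58.4 and 56.1 FPKM, and *Sycp2*, its long partner, at 49.3 and 76.1 FPKM. Medians were -0.24 (-0.11) for break formation and strand invasion, -0.15 (-0.22) for crossover genes, 0.09 (0.04) for cohesins and 0.07 (0.12) for germ-cell RNA regulators. The piRNA pathway was at 0.04 and the DNA damage checkpoint at 0.04, and both turned negative relative to coding length, at -0.09 and -0.000643. Markers of differentiating spermatogonia and preleptotene spermatocytes were lower in 10 of 13, with 5 at least 2-fold and a median of -0.68 (-0.49), among them *Dmrt1*, a regulator of spermatogonia, at 21.1 and 8.37 FPKM and *Stra8*, which starts meiosis, at 16.5 and 7.34 FPKM.

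The X chromosome was somewhat lower than the autosomes. Of 475 X-linked protein-coding genes 48 (10.1%) were at least 2-fold lower and 8 higher, with a median of -0.27. Among genes over 600 coding bases the median was -0.21 for 354 X-linked genes and -0.03 for 10161 autosomal genes, and among shorter ones it was -0.52 and -0.51. X-linked medians were above 0 in the other pairs, at 0.18 in P at PD 24, 0.24 in L/Z at PD 52 and 0.16 in L/Z at PD 24. A small region of the X chromosome, from 102686292 to 102929094, held 4 of the 15 largest decreases among protein-coding genes. 1700018G05Rik was at 63.8 and 6.07 FPKM (395 and 34 reads), 1700011M02Rik at 63.7 and 7.87, Gm9112 at 52.5 and 7.38, and Gm3880 at 29.0 and 4.50 FPKM. The last 3 share some 50-base windows with one another, 69 between Gm9112 and 1700011M02Rik, so part of their reads is uncertain.

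Genes of the late spermatid did not share one direction. Of the 8 protamine, transition protein and related genes, which package sperm DNA, 7 were lower and 4 at least 2-fold, with a median of -1.06 (-0.57 relative to coding length). *Prm1* was at 1120.0 FPKM (10260 reads) in P WT and 384 FPKM (3182 reads) in P cKO, and *Tnp2* at 1145 and 584 FPKM. The family median was -4.22 in the P pair at PD 24 and -3.65 in the L/Z pair at PD 24, but 0.64 in the L/Z pair at PD 52. Elongating spermatid markers had a median of -0.68 (-0.41), round spermatid markers -0.27 (-0.08), and sperm glycolysis enzymes -0.26 (-0.17). Genes of the outer dense fibres and fibrous sheath, which surround the axoneme in the flagellum, were lower in 18 of 26 with 0 past 2-fold, a median of -0.21 (-0.06) and sums of 4974 FPKM in P WT and 3954 FPKM in P cKO. Genes of the axoneme and motile cilium were higher in 42 of 54, with 9 at least 2-fold and 0 lower, and a median of 0.24, which stayed 0.24 relative to coding length. The 9 genes comprised dynein heavy chains and other giant axonemal proteins, with *Dnah2* at 15.7 and 39.9 FPKM, *Dnah12* at 12.1 and 30.8 FPKM and *Dnah8* at 82.2 and 170.2 FPKM. *Spag17*, of the central pair apparatus, was at 30.7 and 67.6 FPKM, and the short radial spoke gene *Rsph1* at 949 and 997 FPKM. Acrosome genes had a median of 0.06 (0.15) and CatSper and ion transport genes 0.20 (0.11). In the P pair at PD 24, 53 of 54 axoneme genes were lower, with a median of -0.29. Acrosome and CatSper medians in that pair were -0.77 and -0.34. In the order axoneme, acrosome and CatSper, medians were 0.03, 0.20 and 0.11 in the L/Z pair at PD 52. At PD 24 the L/Z pair had -0.16, -0.36 and -0.20.

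Somatic cell markers moved in opposite directions. Of 23 Sertoli cell markers past the filter 22 were lower and 10 at least 2-fold, with a median of -0.90 (-0.79 relative to coding length), and none was at 0 in either library. *Cst9*, a testis cystatin, was at 218 FPKM (2402 reads) in P WT and 63.9 FPKM (637 reads) in P cKO, *Aard* at 147 and 47.1 FPKM, and *Clu*, clusterin, at 339 and 186 FPKM. *Cldn11*, a protein of the blood-testis barrier, was at 54.6 and 19.5 FPKM and *Amhr2*, the receptor of anti-Mullerian hormone, at 141 and 53.3 FPKM. At PD 24 the summed level of the list in P WT and P cKO was 1205 and 1539 FPKM, so of the 4 P libraries P cKO at PD 52 was the lowest.

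Leydig cell markers were higher in P cKO. Of the 15 past the filter 14 were higher and 11 at least 2-fold, with a median of 1.74 (1.91 relative to coding length), of which 2 passed the filter in P cKO alone. *Cyp17a1*, the 17-hydroxylase and lyase of androgen synthesis (ENSMUSG00000003555, chromosome 19, 46667165 to 46672974), was at 43.5 FPKM (1512 reads) in P WT and 204 FPKM (6423 reads) in P cKO, 4.70-fold higher (change 2.21, 95% interval 2.13 to 2.29). *Cyp11a1*, which cleaves the cholesterol side chain, was at 12.3 and 46.6 FPKM, *Hsd17b3* at 6.00 and 25.6 FPKM, and *Lhcgr*, the receptor of luteinizing hormone, at 0.806 and 6.37 FPKM. *Star*, which delivers cholesterol to mitochondria, was at 6.33 and 20.1 FPKM, and *Insl3*, the most abundant marker of the list, at 166 and 273 FPKM. Other members differed little, with *Nr5a1*, a nuclear receptor of steroidogenic cells, at 7.42 and 7.70 FPKM and *Fdx1*, which passes electrons to the steroid-making P450 enzymes, at 20.4 and 19.6 FPKM. The steroid synthesis list shares these 2 genes and 7 of the raised ones with the Leydig cell list. It had 15 of 21 genes higher, 7 at least 2-fold, and a median of 0.31 (0.59). Of the 21, 3 passed the filter in P cKO alone. Of the 18 above 1 FPKM in both libraries 12 were higher, 6 at least 2-fold, with a median of 0.23. The Leydig cell median was 1.72, 1.46 and 1.502 in the other pairs, each in favour of MFN2 cKO.

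The kallikreins of the Klk1b group, some of which mark Leydig cells, were higher in 5 of 8 past the filter and lower in 3, and included 3 of the 15 largest increases. *Klk1b21* was at 14.2 and 58.3 FPKM, *Klk1b24* at 13.7 and 50.3 FPKM and *Klk1b27* at 7.502 and 30.1 FPKM, and these paralogs share between 14.3% and 33.9% of their 50-base windows with other genes. *Klk1b9*, *Klk1b8* and *Klk1b26* were lower, the first at 3.30 and 0.9503 FPKM, the next at 9.80 and 5.53 FPKM and the last at 1.03 and 0.497 FPKM. Other large increases were *Itih2* at 2.28 and 11.4 FPKM, *Sult1e1*, an estrogen sulfotransferase, at 2.66 and 13.0 FPKM, *Sparcl1* at 3.50 and 14.9 FPKM, *Aqp2* at 3.82 and 15.8 FPKM and *Igfbp6* at 2.86 and 12.2 FPKM. *Ccdc7a*, a testis gene, was at 7.02 and 32.1 FPKM (741 and 3067 reads), and 11.3% of its windows are shared with other genes.

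Macrophage markers were low in both libraries. The 18 markers summed to 26.7 FPKM in P WT and 62.6 FPKM in P cKO, 2 were at 0 in P WT and 0 in P cKO, and 16 of 18 were higher, where 54.7% of all genes with a read were. Only 5 were above 1 FPKM in both libraries and 8 passed the filter in P cKO alone, so the count past the filter carries a bias toward higher values. Of the 5, 3 were higher, 1 at least 2-fold, with a median of 0.07. *Lyz2*, lysozyme, had 20 and 156 reads (0.947 and 8.17 FPKM), *Apoe* was at 10.9 and 28.5 FPKM, and *Ctss* had 0 and 42 reads.

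Interferon response genes were higher at low levels. All 56 genes of the list had reads, 49 were higher and 7 lower, and their sum was 76.3 FPKM in P WT and 147 FPKM in P cKO. Of the 26 past the filter 16 passed it in P cKO alone, and the 9 above 1 FPKM in both had a median of 0.32, where all such genes had -0.08. *Cxcl10*, the chemokine that draws CXCR3-bearing T cells (ENSMUSG00000034855, chromosome 5, 92346638 to 92348889), showed the largest increase of any protein-coding gene above 10 FPKM, from 4.57 FPKM (165 reads) to 35.4 FPKM (1156 reads), a change of 2.71 (95% interval 2.51 to 2.91). *Irgm1*, a GTPase of antimicrobial defence, had 56 and 357 reads, *Lgals3bp* 44 and 248 reads, and *Ifit3*, an RNA-binding antiviral protein, 7 and 48 reads. *Irf1* was at 8.17 and 17.501 FPKM. The median of the 26 was 0.57 (0.76), against -0.12 in the P pair at PD 24, 0.82 in the L/Z pair at PD 52 and 0.25 in the L/Z pair at PD 24.

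The promoters of these genes were searched for the core of the interferon-stimulated response element (GAAA, any 2 bases, GAAA) on both strands and with overlaps allowed, from 250 bases before to 50 bases after each RefSeq start (GRCm38.p6). It was in 11 of 26 promoters (42.3%) of the 22 genes with an entry, against 3.44% of all 32851 promoters. A match is a description of the letters and not of binding. Stretches of 3 promoters around the match are shown for genes with large increases, on the strand of the gene with the match in capitals, at chr5:92349053-92349139 (minus strand) for *Cxcl10*, chr11:48871421-48871490 (minus strand) for *Irgm1* and chr19:34583333-34583456 (plus strand) for *Ifit3*, where it is on the opposite strand.
Cxcl10: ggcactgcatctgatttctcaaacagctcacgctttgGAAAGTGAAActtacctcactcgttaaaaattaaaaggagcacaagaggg
Irgm1: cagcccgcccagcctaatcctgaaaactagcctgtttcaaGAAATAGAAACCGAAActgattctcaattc
Ifit3: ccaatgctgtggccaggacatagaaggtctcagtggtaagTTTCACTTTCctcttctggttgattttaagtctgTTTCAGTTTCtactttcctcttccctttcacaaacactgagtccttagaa
Other motifs were searched in the same way. AAGGTCA, the half-site of NR5A receptors, was in 1 of 15 Leydig cell promoters, against 4.72% of all. TGACGTCA, the cAMP response element, was in 2 of 23 promoters (8.70%) of immediate early genes, against 1.79% of all and 2.97% of those of tested genes. It was also in 6 of 73 promoters (8.22%) of ribosomal protein genes. TTCCGG, the core of ETS sites, was in 35 of 73 promoters (47.9%) of ribosomal protein genes, against 14.9% of all and 24.9% of those of tested genes.

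Immediate early genes, which respond within minutes to stimulation and also to tissue handling, were higher in 24 of 26, 7 of them at least 2-fold, with a median of 0.61 (0.80 relative to coding length). *Fosb* was at 17.98 FPKM (1801 reads) in P WT and 75.1 FPKM (6807 reads) in P cKO, *Egr1* at 30.2 and 121 FPKM, *Fos* at 37.3 and 112 FPKM, *Jun* at 29.8 and 80.8 FPKM, and *Zfp36*, an mRNA decay factor, at 20.7 and 69.2 FPKM. At PD 24 both P libraries had more *Fosb* RNA than the P libraries at PD 52, at 81.1 FPKM in WT and 108 FPKM in cKO. The list median was 0.29 in the P pair at PD 24, 0.93 in the L/Z pair at PD 52 and 0.82 in the L/Z pair at PD 24. The part of tissue handling was not tested. Heat shock chaperones had a median of 0.01 (0.03) and genes of the ER and integrated stress response -0.07 (0.00127), which turned positive with median-of-ratios scaling.

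Few genes differed 2-fold the same way in all 4 pairs, which share no library. There were 48 genes higher in MFN2 cKO in every pair (0.275% of the 17444) and 1 lower (0.00573%). The gene lower in every pair was the lincRNA Gm47645, with 194 and 39 reads in the P pair at PD 52. Those higher included the Leydig cell genes *Cyp17a1*, *Cyp11a1*, *Hsd3b1*, *Hsd3b6*, *Lhcgr*, *Klk1b21*, *Klk1b24* and *Klk1b27*, the macrophage genes *Apoe* and *Lyz2*, the matrix gene *Dcn* (31 and 178 reads), *Cxcl10*, *Zfp36* and *Fabp3*. *Klf1*, an erythroid transcription factor, had 9 and 88 reads, and *Defa29*, a defensin, 0 and 29 reads in the P pair at PD 52 and 0 reads in each of the 4 WT libraries.

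The largest difference of all was in the histone pseudogene Hist1h2al (ENSMUSG00000091383, chromosome 13, 51202727 to 51203065). It had 5 reads in P WT and 820 reads in P cKO at PD 52 (0.919 and 167 FPKM, change 6.45, 95% interval 5.73 to 7.02). The other WT libraries had 13, 2 and 1 reads, and the other cKO libraries 520, 645 and 1285 reads, so WT and cKO libraries did not overlap. Of its 290 windows of 50 bases, 67.6% occur in other genes, 190 of them in the predicted gene Gm20632, so its reads are uncertain as to which gene they came from. A second pseudogene, Gm7993, had 38 and 946 reads in the P pair and 34 and 1492 in the L/Z pair at PD 52, but 42 and 25 and then 45 and 31 at PD 24. Of its windows 49.6% occur in other genes, 439 of them in *Odc1*, with 7390 and 5300 reads in the P pair, so its reads are uncertain as well. Like Rpl34-ps1 and *Rpl29*, it set both cKO libraries at PD 52 apart from the other 6 libraries. Gm11702, Mir7663 and Mir7669, the remaining large increases among noncoding genes, had 0 reads in P WT and 18, 13 and 10 reads in P cKO. The largest decreases among noncoding genes were 1700095K22Rik with 73 and 6 reads, Snord104 with 28 and 3, *mt-Tc* with 144 and 20, Gm22918 with 21 and 2 and AC121151.1 with 148 and 14. For Gm11702 and Gm22918 100% of windows occur in other genes, and for AC121151.1 70.0%, so their reads are uncertain too.

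**Figure D5:**
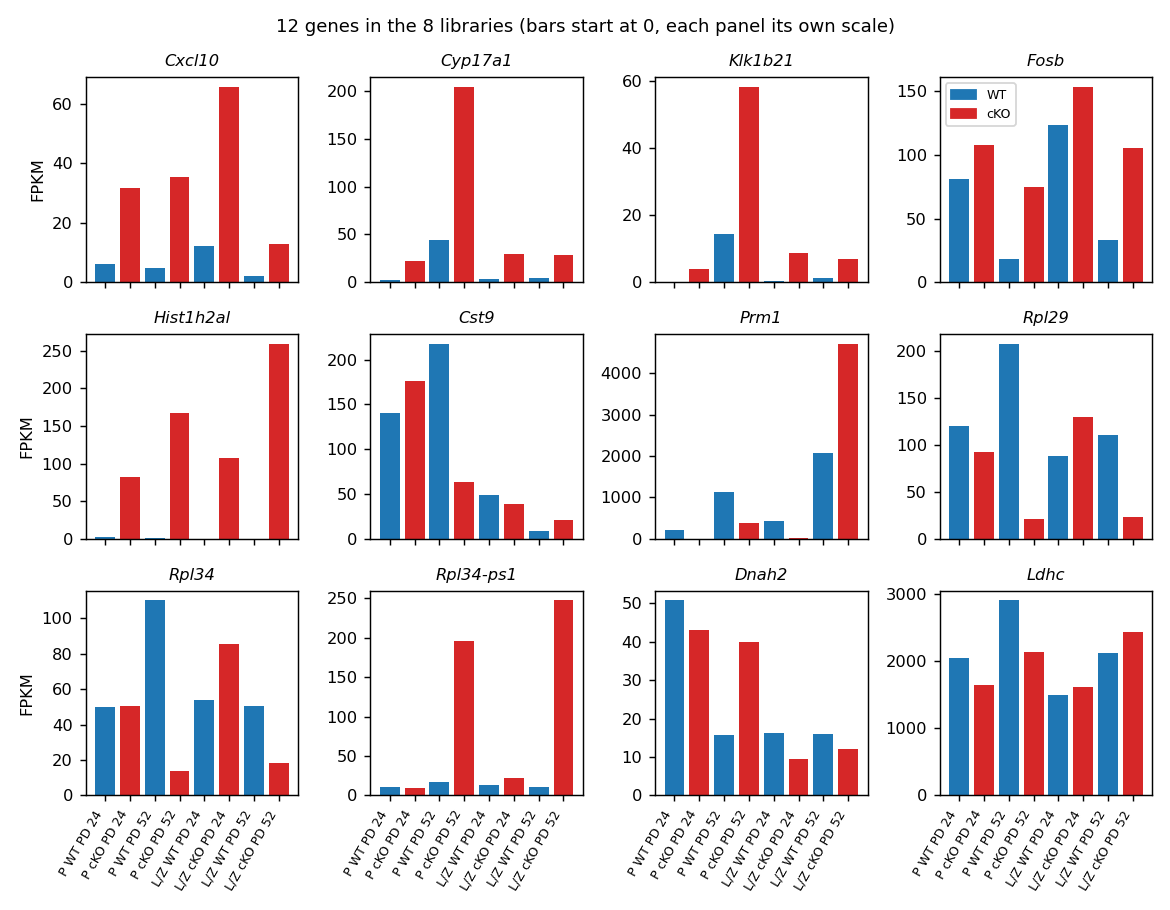
FPKM of 12 genes in the 8 libraries, 1 bar a library, WT in blue and cKO in red, each panel on its own scale from 0. Hist1h2al is near 0 in the 4 WT libraries and 82.5 to 259 FPKM in the 4 cKO libraries, and Rpl34-ps1 is high, and *Rpl29* low, in the 2 cKO libraries at PD 52.

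The remaining large decreases among protein-coding genes included several testis genes. AC087559.2, on an unplaced scaffold, was at 122 FPKM (808 reads) and 9.36 FPKM (56 reads). *Defb45*, a beta-defensin, was at 14.1 and 0.816 FPKM (134 and 7 reads), *Etd*, an X-linked testis gene, at 35.2 and 5.33 FPKM, and *Rhox13*, an X-linked homeobox gene of differentiating germ cells, at 14.9 and 2.67 FPKM. *Wfdc1* was at 12.3 and 2.06 FPKM and 1700012A03Rik at 56.6 and 12.7 FPKM. *Rps27a*, which encodes a fusion of ubiquitin and a ribosomal protein, was at 139 and 22.8 FPKM, whereas in the P pair at PD 24 it was at 40.4 and 72.5 FPKM.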

How the data were processed

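RNA was measured in 8 libraries of mouse spermatocytes, 1 for each stage, age and genotype, and the P pair at PD 52 is described here. The authors sequenced paired-end reads of 150 bases from unreplicated libraries and deposited FPKM values for each of 54532 genes, with gene lengths and coordinates. The submitters' processing notes name CASAVA 1.4 and Bowtie 0.12.2 and the builds mm8 and mm9. The table's coordinates are those of GRCm38, with 53585 of the genes at the positions of GENCODE mouse release 21. Strandedness of the counting is not given in the sources used here, so overlapping and antisense genes are uncertain. The age is given as PD 52 in the labels.

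The FPKM of a gene times its length is a whole multiple of the worth of 1 read in each library (within 0.01 for 100% of values), and dividing by it gave 16010239 reads in P WT and 14340665 reads in P cKO at PD 52.

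Changes were computed as log2(FPKM + 1), with a filter at FPKM above 1 in either library. No test across genes was made, since each group holds 1 library. Counting intervals (95%, Clopper-Pearson) used scipy 1.17.1. Coding length is the longest coding sequence in GENCODE, present for 12381 of the 12396 protein-coding genes tested. Relative to coding length means after the median of 9 bins was subtracted. Gene lists (63) and the comparison itself were chosen with earlier results of these data known. Genes named were Mfn2, the 15 largest increases and decreases among protein-coding genes and 5 each among others above 10 FPKM, the gene with the highest FPKM, and in each list the 3 largest changes and 2 highest levels. Any other gene was named after its values were seen. Windows of 50 bases were compared between GENCODE transcripts. The recovery of reads and the intervals were tested on simulated data with Python 3.11.15.

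Alternatives were a pseudocount of 0.1, no filter, FPKM above 5, median-of-ratios scaling, FPKM from total reads, protein-coding genes only, and at least 50 reads. Centring on coding length and pooling of copies were added after seeing the data.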

Additional observations from a re-analysis of the deposited data

Results flagged for a closer look

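Some results of the P pair at PD 52 went the opposite way in the pair of the same stage at PD 24 or of the same age in L/Z, with 1 library a side, so that the difference was not tested. Sertoli cell markers had a median of -0.90 in the P pair at PD 52 and 1.15 in the L/Z pair at PD 52. Protamine and transition protein genes had medians of -1.06 and 0.64 in the same 2 pairs.

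Among genes with the largest changes, AC087559.2 changed by -3.57 in the P pair and by 2.58 in the L/Z pair at PD 52, 1700018G05Rik by -3.20 and 1.68, 1700011M02Rik by -2.87 and 1.22, and Etd by -2.52 and 1.13. The snoRNA gene Snord104 changed by -2.71 in the P pair at PD 52, by 1.37 in the P pair at PD 24 and by 1.03 in the L/Z pair at PD 52. Gm22918, annotated as a miRNA gene, changed by -2.52, 1.97 and 1.52 in the same order. Mir7669, with 0 and 10 reads in the P pair at PD 52, changed by -2.65 in the P pair at PD 24, and Mir7663, with 0 and 13 reads, by -1.07 in the L/Z pair at PD 52. Snord104, Gm22918, Mir7669 and Mir7663 rest on few reads in the P pair at PD 52.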

How the results depend on the processing

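No paired analysis was possible because each group holds 1 library. With a pseudocount of 0.1 there were 1694 genes at least 2-fold higher and 1670 lower. FPKM above 5 left 273 higher and 676 lower. With at least 50 reads 317 were higher and more than that lower, and among protein-coding genes 237 were higher and 554 lower. The change of Mfn2 was -0.21 with median-of-ratios scaling. List medians that moved by more than the order-statistic interval over member genes were, with a pseudocount of 0.1, macrophages 1.38, mitochondrial ribosomal proteins -0.75, interferon response 1.09, chemokines and cytokines 1.05 and chromosome X -0.37. Without a filter replication-dependent histones were at -0.24 and chromosome X at -0.0797, and with FPKM above 5 macrophages were at 1.77 and chromosome X at -0.51. With median-of-ratios scaling cytosolic ribosomal proteins were at -1.19, acrosome genes at 0.15 and chromosome X at -0.19. Centred on coding length, replication-dependent histones turned from -0.53 to 0.0623, and the medians of complex I (-0.55), complex IV (-0.23), ATP synthase (-0.42), mitochondrial ribosomal proteins (-0.32), mitochondrial import (-0.29), peroxisome biogenesis (-0.0565), chemokines and cytokines (1.08), cytosolic ribosomal proteins (-0.79), proteasome subunits (-0.32), acrosome genes (0.15) and chromosome X (-0.13) moved. Of the 126 named genes past 2-fold, 117 stayed past it in the same direction with median-of-ratios scaling and 0 changed direction. Depth limits genes under 20 reads, and 1 library a side leaves the spread between animals unknown.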

Other observations

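Among the families not described above, proteasome subunits were lower in all 36 genes past the filter, 2 of them at least 2-fold, with a median of -0.47 (-0.32 relative to coding length). The 60 translation factors had a median of -0.25 (-0.12) and the 23 genes of intrinsic apoptosis -0.20 (-0.01). Testis-specific serine kinases were lower in 10 of 12, with a median of -0.42 (-0.28). Of 23 cholesterol synthesis genes 16 were higher, with a median of 0.20 (0.27) and none past 2-fold. Antioxidant enzymes had a median of -0.22, which was 0.04 relative to coding length. Peritubular myoid markers had a median of -0.17 over 7 genes past the filter.

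Chemokines and cytokines were low in both libraries, with sums of 24.2 FPKM in P WT and 49.7 FPKM in P cKO for the 24 genes. Of 23 with a read 21 were higher, where 54.7% of all genes with a read were. Of the 10 past the filter 5 passed it in P cKO alone, among them *Csf1*. Of the 5 above 1 FPKM in both libraries 4 were higher, 1 at least 2-fold, with a median of 0.65. *Cxcl1*, a neutrophil chemokine, was at 11.8 and 24.7 FPKM, and *Csf1*, a macrophage growth factor, at 0.531 and 2.15 FPKM. *Tgfb1* went the other way, at 3.12 and 1.69 FPKM.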
